A study of Mus musculus with 12 samples.

Results

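The miRNA miR-21a is represented in these small RNA libraries by both arms of its hairpin, miR-21a-5p (mmu-miR-21a-5p in the table) and miR-21a-3p, which are 2 of the 350 miRNAs in the table. They were chosen by name, and miR-21a-5p was the most abundant miRNA in each of the 12 libraries. The libraries came from C166, an endothelial cell line derived from mouse yolk sac, whose cells were kept in hypoxia at 1% oxygen for 2 h or 24 h or were left in normoxia (0 h). Nuclear RNA and cytoplasmic RNA were sequenced separately, which gave 6 groups (nucleus at 0, 2 and 24 h, and cytoplasm at 0, 2 and 24 h) with 2 replicates in each. All groups share the same cell line and medium, so the values describe 1 line in culture. The study calls the replicates biological, and the labels do not say whether they were separate cultures, so the p-values measure only the spread between these samples, part of which may be technical.

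A miRNA hairpin is cut by Drosha in the nucleus and by Dicer in the cytoplasm into a short duplex. The strand that is kept by an Argonaute protein is the guide, and it pairs with target transcripts through its seed, the bases just behind its 5′ end. The other strand, the passenger, is usually degraded. For miR-21a the guide is the 5p arm, which is abundant in many cultured and tumour cells and is known to repress Pdcd4, an inhibitor of translation. The mature sequences are shown because the results turn on the contrast between the arms and because a second measured miRNA carries the 5p seed. They are RefSeq sequences on GRCm38.p6, written 5′ to 3′ with the seed (bases 2 to 8) in capitals.
miR-21a-5p: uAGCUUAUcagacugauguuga
miR-21a-3p: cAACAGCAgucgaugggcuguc
miR-21c: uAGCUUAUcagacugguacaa
The arms of miR-21a, of 22 bases each, lie on the minus strand of chromosome 11, the 5p arm at chr11:86584120-86584141 and the 3p arm at chr11:86584082-86584103. The 92-base hairpin (chr11:86584067-86584158) sits within the last exon of Vmp1, which encodes a membrane protein of autophagy, on the same strand and past the stop codon of the annotated transcript Vmp1-201. Among the 301 measured miRNAs with a RefSeq sequence, miR-21c was the only other one with the 5p seed, and none shared the 3p seed. miR-21c lies on chromosome 8 (chr8:128278188-128278208, minus strand) and has the first 15 bases of miR-21a-5p.

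The nuclear libraries held 3379276 to 4375616 miRNA reads and the cytoplasmic libraries 4708753 to 7787926. Each value is a normalized count, the reads of a miRNA divided by 1 size factor per library. The endothelial marker miR-126a-3p was present at 332 to 860 normalized counts, and miR-126a-5p was not analysed here. None of 4 blood markers was among the 350 miRNAs analysed. The smooth muscle and fibroblast markers miR-143-3p and miR-145a-5p were both present, miR-143-3p at 328769 to 695284 and miR-145a-5p at 1253 to 4011 normalized counts. Among markers of other cells, 1 of 3 of muscle, 1 of 1 of liver, 1 of 2 of neurons and 2 of 4 of epithelium were present, the highest at 926 normalized counts. Their part in the results was not tested.

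In nuclear RNA, miR-21a-5p had 2359320 and 1869550 normalized counts without hypoxia, 2684440 and 2705210 after 2 h, and 2791390 and 3009180 after 24 h. In cytoplasmic RNA it had 2957510 and 2942150 without hypoxia, 2453030 and 3243850 after 2 h, and 1985910 and 1732660 after 24 h. Both nuclear libraries at 24 h were above both at 0 h, and both cytoplasmic libraries at 24 h were below both at 0 h. The highest of the 6 group means was that of the cytoplasm at 0 h (2949830 ± 10857, SD, n = 2) and the lowest that of the cytoplasm at 24 h (1859280 ± 179078, SD, n = 2). In the order of the means (cytoplasm 0 h, nucleus 24 h, cytoplasm 2 h, nucleus 2 h, nucleus 0 h, cytoplasm 24 h), the only neighbours whose replicates did not overlap were the nucleus at 2 h and the nucleus at 0 h. The log2 levels of miR-21a-5p varied by an SD of 0.29 over the 12 libraries, rank 47 of 350 from the lowest, against a median SD of 0.50 over all miRNAs. That median includes miRNAs with as few as 10 reads in a library, whose SD also holds counting error. In bulk libraries of this kind, more molecules in each cell and more cells with the molecule cannot be told apart.

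**Figure D1:**
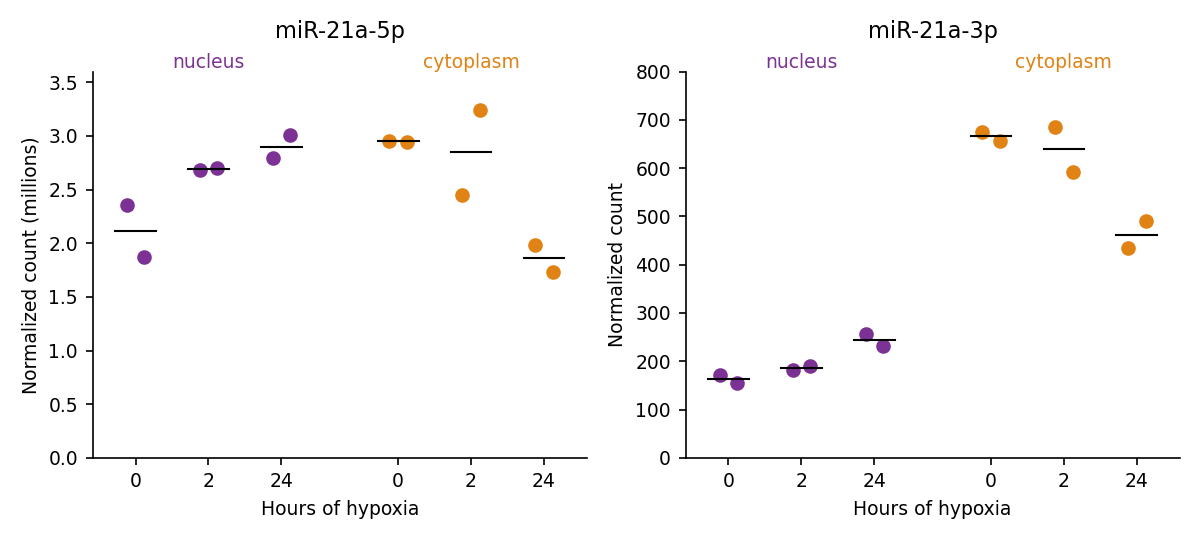
Normalized counts of miR-21a-5p (left, in units of 1000000) and miR-21a-3p (right) by hours of hypoxia in the nucleus and the cytoplasm. Points are libraries and black lines are means of 2. For the 5p arm, both nuclear libraries lie below both cytoplasmic ones at 0 h and above them at 24 h, while all 6 nuclear libraries of the 3p arm (154 to 256) lie below all 6 cytoplasmic ones (434 to 686).

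The first question was whether the level of miR-21a-5p, relative to the other miRNAs of a library, differed between the fractions. The study sequenced equal amounts of RNA from each sample. No level given here, of either arm, therefore tells how much of a miRNA each compartment holds. Over all libraries the nuclear mean of miR-21a-5p was 2569850 ± 402066 and its cytoplasmic mean 2552520 ± 599481 normalized counts (SD, n = 6 each). The difference was 0.03 on the log2 scale (95% interval -0.33 to 0.39), with an adjusted p of 0.905 by limma with Benjamini-Hochberg adjustment, where 56.0% of all miRNAs passed the threshold of 0.05. The fractions overlapped, and miR-21a-5p stood in the middle of the 350 miRNAs, with a median difference of 0.03 over all of them. The pooled value combined times at which the direction differed. At 0 h miR-21a-5p was lower in the nucleus than in the cytoplasm by 1.40-fold (log2 -0.49, SE 0.19, limma adjusted p = 0.0333, with 62.6% of miRNAs called). At 2 h the difference was -0.07 on the log2 scale (95% interval -0.47 to 0.34, limma adjusted p = 0.793, with 63.1% called). At 24 h it was higher in the nucleus by 1.56-fold (log2 0.64, SE 0.19, limma adjusted p = 0.0127, with 42.6% called). The call at 0 h was lost without either cytoplasmic library of 0 h, and without nuclear replicate 2 of 0 h, where the difference was -0.32. The call was lost too without either nuclear library of 2 h, where the difference stayed at -0.49 and only the spread changed. It was also lost with the culture as a block (adjusted p 0.0957) and when scaled to miR-186-5p (log2 -0.21, adjusted p 0.546), and the difference was -1.04 (adjusted p 1.75e-08) with miR-21a-5p left out of the scaling total. The call at 24 h was lost without nuclear replicate 2 (log2 0.59, adjusted p 0.0917) or cytoplasmic replicate 2 (log2 0.55, adjusted p 0.104) of 24 h, and when scaled to the table's total (log2 0.20, adjusted p 0.0896) or to miR-186-5p (log2 0.45, adjusted p 0.239).

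The next question was how hypoxia changed miR-21a-5p within each fraction. In the nucleus it rose 1.38-fold at 24 h against 0 h (log2 0.46, SE 0.12, limma adjusted p = 0.00475), in a comparison in which 46.6% of miRNAs were called. In the cytoplasm the difference at 24 h against 0 h was -0.67 on the log2 scale (SE 0.31, 95% interval -1.31 to -0.03), which did not pass after adjustment (limma adjusted p = 0.0947, with 35.1% called). At 2 h against 0 h the difference was 0.36 in the nucleus (SE 0.12, limma adjusted p = 0.0884, with 7.14% called) and -0.06 in the cytoplasm (SE 0.31, limma adjusted p = 0.966, with 0.0% called). In that last comparison, 0 miRNAs passed with limma and 0 with limma-voom, and 39 had an unadjusted limma p under 0.05. Without nuclear replicate 2 of 24 h, the nuclear change at 24 h missed the threshold (log2 0.41, adjusted p 0.0933), and without nuclear replicate 2 of 0 h it was 0.30 (adjusted p 0.0298). The change also missed with no variance trend (adjusted p 0.0770) and when scaled to miR-186-5p (log2 0.30, adjusted p 0.154), and was 0.92 (adjusted p 2.51e-06) with miR-21a-5p left out of the scaling total. Without nuclear replicate 1 of 0 h the nuclear difference at 2 h was 0.53. Leaving out either cytoplasmic library of 2 h left the cytoplasmic difference at 24 h at -0.67. The 2 h libraries enter that comparison only through the spread. In a fit of all 12 libraries the cytoplasmic difference at 24 h passed (adjusted p 0.0112), and the nuclear change did not (adjusted p 0.0534).

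The change at 24 h differed between the fractions. The nuclear change exceeded the cytoplasmic one by 1.13 on the log2 scale (SE 0.27, 95% interval 0.56 to 1.70, limma adjusted p = 0.00360), a test of the interaction that called 46.3% of all miRNAs. The value lay between 0.97 and 1.30 and passed the threshold whichever library was left out. At 2 h the same difference was 0.42 (SE 0.27, limma adjusted p = 0.314), with 5.71% called. Both fractions' values rest on size factors that set the level of every miRNA at once. Other scalings moved the median of all miRNAs in this comparison by -0.47 to 0.32 on the log2 scale. Subtracting that median cancels a scaling by construction, and on that basis the interaction of miR-21a-5p was 0.98 to 0.99, which is no support against another scaling. The interaction itself was 0.72 (adjusted p 4.70e-05) when scaled to the table's total. Scaled to miR-186-5p, which the study used as a stable reference for RT-qPCR, the interaction was 0.66 and did not pass (adjusted p 0.221). With the size factors, miR-186-5p itself had an interaction of 0.48 (SE 0.23, 95% interval -0.01 to 0.96). Scaling to miR-186-5p subtracts that value from every miRNA and adds the spread of a reference with 711 to 2346 reads per library. With the size factors, its log2 levels varied by an SD of 0.16 over the 12 libraries, rank 3 of 350 from the lowest. The study chose it with NormFinder as its most stable miRNA. In its RT-qPCR a spike-in gave very similar results for other miRNAs, miR-21a not among them.

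**Figure D2:**
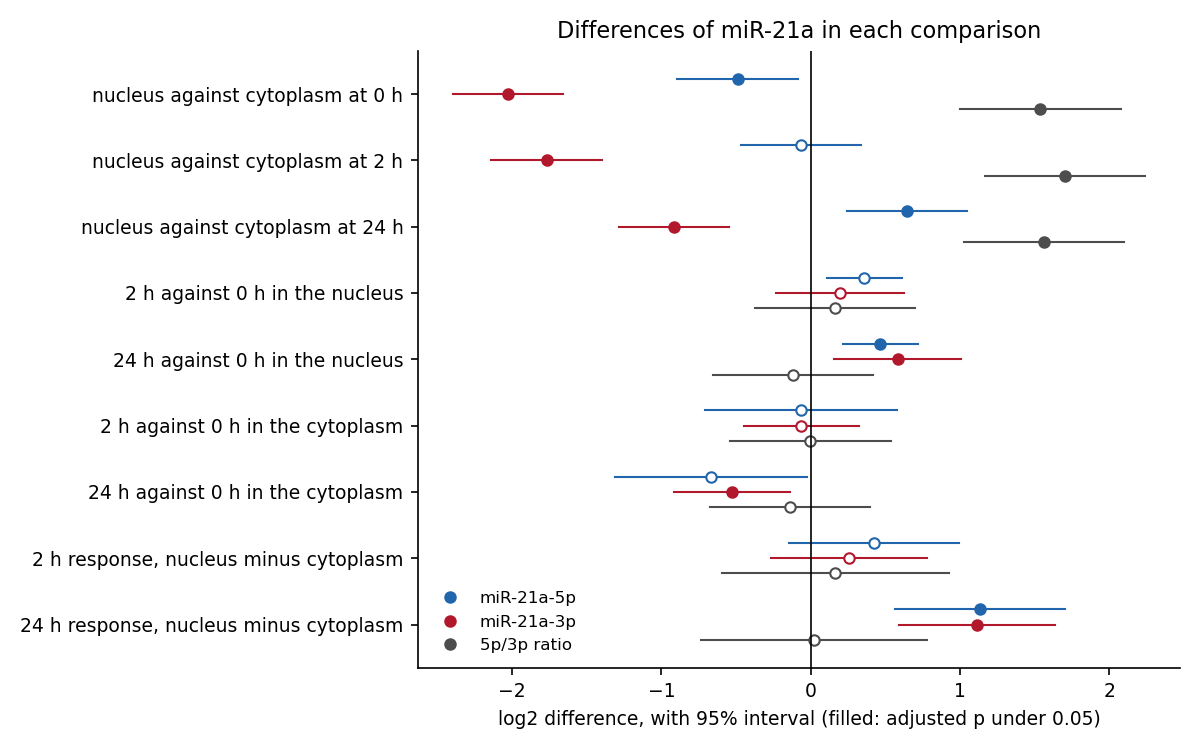
Log2 differences of miR-21a-5p, miR-21a-3p and their ratio in each comparison (horizontal axis), with 95% intervals from limma. Filled points passed an adjusted p of 0.05. The 5p and 3p responses at 24 h differ between the fractions by 1.13 and 1.11, and the interval of their ratio there spans 0.

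The size of miR-21a-5p in the libraries is best seen as its share of the miRNA reads. Nuclear libraries gave it 45.1% and 37.4% of their reads before hypoxia, 48.3% and 49.9% after 2 h, and 57.0% and 57.2% after 24 h. Cytoplasmic libraries gave it 60.3% and 57.7% before hypoxia, 56.8% and 57.8% after 2 h, and 51.0% and 48.8% after 24 h. The fractions did not overlap at any time, the nucleus being lower at 0 h and 2 h and higher at 24 h. At 24 h against 0 h the nuclear share was 15.8 percentage points higher, and the cytoplasmic share differed by -9.11 points. Over all times the nuclear mean was 49.1% ± 7.50 and the cytoplasmic mean 55.4% ± 4.48 (SD, n = 6 each), a difference of -6.25 points with a p of 0.0909 by a two-sided exact permutation test. That p was 0.0476 without either nuclear library of 24 h (-7.81 and -7.86 points) and 0.0390 without cytoplasmic replicate 2 of 24 h (-7.57 points). At these depths the 95% Wilson interval of each share was narrow beside the spread between replicates, for example 37.4% to 37.5% for the lowest, and intervals of this kind cover counting error only.

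The share also depends on the other abundant miRNAs. miR-143-3p was second in every library, and miR-21a-5p exceeded it by 4.08 to 7.89 times in the nucleus and 4.67 to 5.55 times in the cytoplasm. The share of miR-143-3p at 24 h against 0 h was different by -1.47 points in the nucleus (7.36% at 24 h and 8.83% at 0 h) and by -1.70 points in the cytoplasm (9.25% at 24 h and 11.0% at 0 h). The let-7 family, which represses cell cycle genes, included let-7f-5p, whose nuclear share was 1.67% at 24 h and 4.39% at 0 h, and let-7i-5p, whose cytoplasmic share was 5.23% at 24 h and 2.77% at 0 h. miR-30a-5p and miR-30d-5p had nuclear shares of 2.08% and 1.83% at 24 h, against 4.15% and 3.71% at 0 h. The nuclear share of let-7g-5p differed by -0.94 points. The shares of miR-7a-5p, miR-99b-5p and miR-148a-3p were within 0.27 points of their 0 h value in the nucleus. In the cytoplasm, 8 of the 9 others had a higher mean share at 24 h than at 0 h, and miR-143-3p did not. Since shares sum to a fixed total, a larger share of 1 miRNA lowers those of the rest. The 10 most abundant miRNAs together held 72.4% to 81.0% of the nuclear reads and 74.7% to 82.4% of the cytoplasmic reads.

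**Figure D3:**
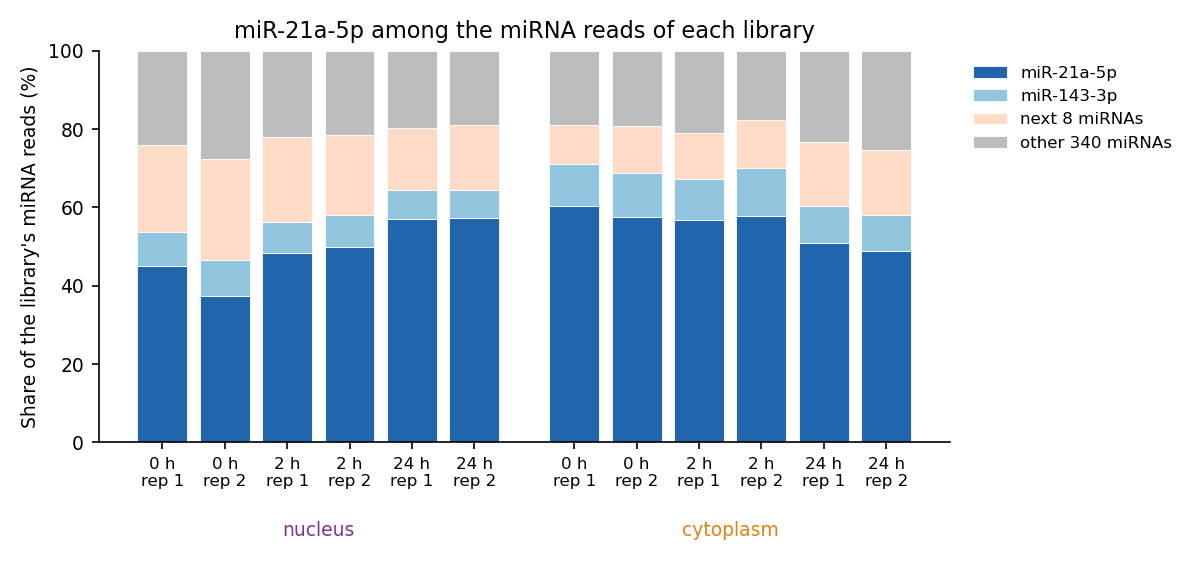
Share of each library's miRNA reads (vertical axis, %) taken by miR-21a-5p, by miR-143-3p, by the next 8 miRNAs and by the other 340, with 1 bar per library. In the nucleus the miR-21a-5p bars reach 37.4% to 45.1% at 0 h and 57.0% to 57.2% at 24 h, and in the cytoplasm 57.7% to 60.3% at 0 h and 48.8% to 51.0% at 24 h.

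The passenger arm, miR-21a-3p, was rare, with a mean of 393 normalized counts and rank 162 of 350. Its nuclear levels were 171 and 154 normalized counts without hypoxia, 183 and 190 after 2 h, and 256 and 232 after 24 h. Its cytoplasmic levels were 675 and 657 without hypoxia, 686 and 593 after 2 h, and 434 and 491 after 24 h. All 6 nuclear libraries lay below all 6 cytoplasmic libraries, with the nearest values at 24 h. The nuclear values rest on 105 to 229 reads and the cytoplasmic values on 536 to 1156 reads. Over all times miR-21a-3p was 2.97-fold lower in the nucleus than in the cytoplasm (log2 -1.57, SE 0.17, limma adjusted p = 2.01e-06), the 25th most negative difference of the 350. The difference was -2.03 at 0 h (SE 0.18, limma adjusted p = 1.58e-08), -1.77 at 2 h (SE 0.18, limma adjusted p = 1.43e-07) and -0.92 at 24 h (SE 0.18, limma adjusted p = 0.000478).

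At 24 h against 0 h the passenger arm rose 1.50-fold in the nucleus (log2 0.58, SE 0.20, limma adjusted p = 0.0266) and fell in the cytoplasm by 1.44-fold (log2 -0.53, SE 0.19, limma adjusted p = 0.0311). The nuclear change exceeded the cytoplasmic one by 1.11 (SE 0.25, limma adjusted p = 0.00225), and by 1.02 to 1.20 with each library left out in turn. At 2 h against 0 h its differences were 0.20 in the nucleus (limma adjusted p = 0.540) and -0.06 in the cytoplasm (limma adjusted p = 0.936). The nuclear call at 24 h was lost without nuclear replicate 2 of 0 h (log2 0.51, adjusted p 0.108) or either nuclear library of 24 h (log2 0.51 and 0.65, adjusted p 0.123 and 0.0668). The cytoplasmic call was lost without cytoplasmic replicate 1 of 0 h (log2 -0.51, adjusted p 0.0620) or either cytoplasmic library of 24 h (log2 -0.44 and -0.62, adjusted p 0.334 and 0.125). The cytoplasmic difference was -0.10 when libraries were scaled to their totals (adjusted p 0.812), a scaling under which the interaction was 0.69 (adjusted p 0.104). The cytoplasmic call was also lost with miR-21a-5p left out of the scaling total (log2 -0.39, adjusted p 0.238) and with no variance trend (adjusted p 0.0575). Scaled to miR-186-5p, both changes missed (log2 0.42 in the nucleus, adjusted p 0.110, and -0.22 in the cytoplasm, adjusted p 0.340) and the interaction was 0.64 (adjusted p 0.0356). The nuclear change was 1.04 (adjusted p 0.000756) with miR-21a-5p left out of the scaling total.

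Because both arms come from the same hairpin and the same library, their ratio does not depend on the size factors. There were 13803 and 12105 reads of the 5p arm for each 3p read in the nucleus without hypoxia, 14694 and 14229 after 2 h, and 10890 and 12973 after 24 h. These are ratios of reads, and the ratio of molecules was not measured. The cytoplasmic ratio was 4383 and 4478 without hypoxia, 3578 and 5470 after 2 h, and 4577 and 3532 after 24 h. The fractions did not overlap at any time. With a mean log2 ratio of 12.86, miR-21a had the highest read ratio of 5p over 3p among the 86 hairpins with both arms measured. Next came let-7i (10.64) and miR-30d (10.18). Each measured arm had at least 10 reads in every library, so the ratio a hairpin could reach was bounded by its 5p abundance. That abundance was highest for miR-21a, so the rank is no separate sign of a stronger arm preference.

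The arm ratio was 3.03-fold higher in the nucleus than in the cytoplasm (log2 difference 1.60, SE 0.19, limma adjusted p = 1.34e-06, higher in 6 of 6 nuclear libraries), in a comparison that called 59.3% of the hairpins. A two-sided exact permutation test of the 6 against 6 libraries gave p = 0.00216, the smallest it can give. The difference was 1.54 at 0 h (SE 0.27, limma adjusted p = 9.16e-08, with 67.4% called), 1.70 at 2 h (SE 0.27, limma adjusted p = 3.58e-09, with 58.1% called) and 1.56 at 24 h (SE 0.27, limma adjusted p = 1.16e-07, with 44.2% called). These fits by time, and those of changes over time, drew the spread of miR-21a almost wholly from the other hairpins. Their p-values and intervals therefore say little about the spread between its own 2 replicates in a group. With no variance trend the limma adjusted p at 0 h was 5.15e-05. Over time no change of the ratio passed. At 24 h against 0 h it differed by -0.12 in the nucleus (95% interval -0.65 to 0.42, limma adjusted p = 0.744, with 38.4% called) and by -0.14 in the cytoplasm (95% interval -0.68 to 0.40, limma adjusted p = 0.718, with 33.7% called). The nuclear change minus the cytoplasmic change was 0.02 (95% interval -0.74 to 0.78, limma adjusted p = 0.963, with 48.8% called).

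**Figure D4:**
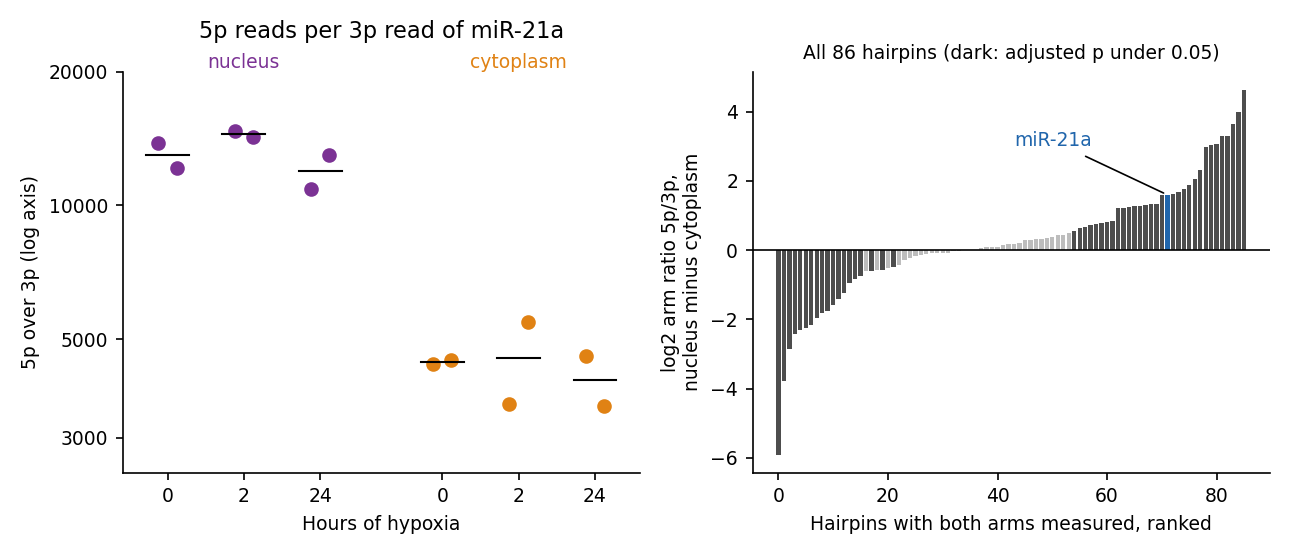
Left, number of 5p reads per 3p read of miR-21a by hours of hypoxia on a log axis, with points for libraries and lines for means of 2. Right, difference of the log2 arm ratio between nucleus and cytoplasm for all 86 hairpins in rank order, with miR-21a at 1.60 in blue. All nuclear ratios (10890 to 14694) lie above all cytoplasmic ratios (3532 to 5470).

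Other hairpins placed this contrast. The difference of miR-21a was the 15th most positive of the 86, where the median was 0.18. With each hairpin's arms sorted by abundance, 27 abundant arms were higher and 22 lower in the nucleus (median log2 0.12), while 14 rare arms were higher and 35 lower (median log2 -0.29). The rest of each class were not called, and 196 of all 350 miRNAs (56.0%) were called in this comparison. The abundant arm was more nuclear than the rare arm in 55 of 86 hairpins, with a median difference of 0.24, and the difference of miR-21a ranked 18th. The arm ratios of other hairpins did change over time in the nucleus. The most negative changes at 24 h against 0 h were those of miR-31 (log2 -4.07, SE 0.29), miR-195a (log2 -2.69, SE 0.39) and miR-25 (log2 -1.72, SE 0.29), and the most positive were those of miR-669a (log2 2.08, SE 0.53), miR-450b (log2 1.99, SE 0.30) and miR-700 (log2 1.92, SE 0.49). Each of these passed with an adjusted p of at most 0.000447 in limma. miR-669a belongs to a family of near-identical copies, so its value is uncertain.

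As a description over libraries that share depth and scaling, Pearson's r of the log2 levels of the arms was 0.81 over the 6 nuclear libraries and 0.75 over the 6 cytoplasmic libraries, but 0.18 over all 12, where the fractions separate for 3p only. The miRNAs most like miR-21a-5p over the 12 libraries were let-7i-3p (r = 0.84), miR-22-5p (r = 0.76) and miR-532-5p (r = 0.74), against a median r of 0.05 over all others. In that order, their r was 0.84, 0.85 and 0.49 over the nuclear libraries and 0.86, 0.82 and 0.86 over the cytoplasmic libraries. Those most like miR-21a-3p were miR-374b-3p (r = 0.99), miR-301a-5p (r = 0.99) and miR-16-1-3p (r = 0.98), each of them also with r of at least 0.80 within each fraction, and the median over all others was -0.06.

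miR-21c, which shares the 5p seed, was measured at a mean of 45.3 normalized counts, from 20 to 86 reads per library. It had 10.2 to 25.7 reads for each 1000000 reads of miR-21a-5p, and these ranges of the fractions overlapped. Its difference between nucleus and cytoplasm was -0.09 (95% interval -0.63 to 0.45, limma adjusted p = 0.786), and its response at 24 h differed between the fractions by 0.30 (95% interval -0.89 to 1.49, limma adjusted p = 0.685). With 15 shared bases, some of its reads could have come from the far more abundant miR-21a-5p, which was not tested, so its values are uncertain.

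The response of miR-21a was set beside 13 miRNAs known from other cell systems to rise in low oxygen, all of them measured. In the nucleus at 24 h against 0 h, 1 of the 13 rose and 3 fell, where 163 of all 350 miRNAs (46.6%) were called, with a median log2 difference of -0.03 against -0.02 over all miRNAs. miR-210-3p, a direct target of the hypoxia factor HIF-1 that represses mitochondrial genes, rose by 2.84 (SE 0.17, limma adjusted p = 1.14e-08). miR-103-3p (log2 -2.17, SE 0.19), miR-107-3p (log2 -0.73, SE 0.19) and miR-26b-5p (log2 -0.52, SE 0.18) fell. In the cytoplasm 2 rose and 1 fell, where 123 of all 350 (35.1%) were called, with a median of 0.18 against -0.10 over all miRNAs. miR-210-3p rose there by 2.31 (SE 0.17, limma adjusted p = 7.42e-10) and miR-23a-3p by 0.74 (SE 0.18), while miR-24-3p, which shares a cluster with it, fell (log2 -0.74, SE 0.20). Beside these, the log2 differences of miR-21a at 24 h were 0.46 for 5p and 0.58 for 3p in the nucleus, and -0.67 for 5p, which did not pass, and -0.53 for 3p in the cytoplasm.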

How the data were processed

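Nuclear and cytoplasmic RNA of C166 cells was sequenced in 12 libraries. Per the labels and the study's methods, the authors used bcl2fastq, Trimmomatic and Bowtie2 2.1.0 (against miRBase) and divided the counts by DESeq2 size factors. The deposited signal values are these normalized counts of 350 miRNAs, each with at least 10 reads in every library. The authors' fold changes and p-values in the table were not used. Shares and depth came from reads recovered with 1 size factor per library (largest deviation from a whole read 0.000152).

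limma 3.58.1 (R 4.3.3), with a trend of the variance on abundance, was fitted to log2(normalized count + 1), a scale that understates changes of rare miRNAs. Adjustment was over all 350 miRNAs or 86 hairpins, at a threshold of 0.05. Changes with time used the 6 libraries of a fraction, other level comparisons and all arm ratios used all 12, and shares were tested by exact permutation (scipy 1.17.1). The fits were also run on simulated libraries with planted changes. Those libraries were drawn independently with the size factors taken as known, so they cannot test the scaling or the effect of shared cultures. Alternatives covered the pseudocount, a filter, scaling, the trend, limma-voom, thresholds, blocks and leaving out each library. The fit of time changes over all 12 libraries was chosen after seeing the data. Named miRNAs were both arms, seed sharers, the 10 most abundant, the 3 most correlated with each arm, the 3 hairpins with the most negative and the 3 with the most positive nuclear arm changes at 24 h, miR-186-5p, and up to 4 listed hypoxia miRNAs per fraction that passed. The members and lists were chosen with earlier results of these data known.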

Additional observations from a re-analysis of the deposited data

Results flagged for a closer look

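The change of miR-21a-5p at 24 h against 0 h differed between the fractions, by 1.13 on the log2 scale for nucleus minus cytoplasm (limma adjusted p = 0.00360 for the interaction). That of miR-21a-3p differed by 1.11 (limma adjusted p = 0.00225). Both tests used all 12 libraries. No library stood apart from the other 5 of its fraction in the level of either arm, the share or the arm ratio, the gap over the range being at most 0.430, below the critical value of 0.625 for 6 samples. That check pooled the times of a fraction, so differences with time widen the range. It could not judge the 2 replicates of a group against each other. For example, the nuclear replicates at 0 h had shares of 45.1% and 37.4%.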

How the results depend on the processing

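Of 278 values under settings other than leaving out a library, 237 kept their direction and side of the threshold. Part of that count was fixed in advance, since the blocks, the variance trend and the stricter thresholds leave the estimate as it is. Scaled to miR-186-5p, miR-21a-5p no longer passed for nucleus against cytoplasm at 0 h (-0.21) and 24 h (0.45), for the nuclear change at 24 h (0.30) and for the 24 h interaction (0.66), and miR-21a-3p for its nuclear (0.42) and cytoplasmic (-0.22) changes at 24 h. At 2 h against 0 h that scaling reversed miR-21a-3p in the nucleus (-0.10), both arms in the cytoplasm (0.029 and 0.031) and the 3p interaction (-0.13). Scaled to the table's total, miR-21a-5p passed for nucleus against cytoplasm at 2 h (-0.22) and for the cytoplasmic change at 24 h (-0.24), lost its call at 24 h between fractions (0.20), and reversed over all libraries (-0.18). miR-21a-3p lost its cytoplasmic change (-0.10) and interaction (0.69). With miR-21a-5p left out of the total used for scaling, that arm reversed over all libraries (-0.37) and passed at 2 h between fractions (-0.48), in the cytoplasm at 24 h (-0.53), in the nucleus at 2 h (0.46) and for the 2 h interaction (0.56), and the cytoplasmic 3p change missed (-0.39). With TMM factors miR-21a-5p reversed over all libraries (-0.046). Each of these scalings changes all miRNAs of a library by the same factor. Which of them is nearest to the true levels was not tested. The cytoplasmic 5p change at 24 h (-0.67) passed with a filter at a mean of 100, with no variance trend, with limma-voom and with all 12 libraries in 1 fit. With no trend, the nuclear 5p (0.46) and cytoplasmic 3p (-0.53) changes at 24 h missed, and so did the nuclear 5p change in the 12-library fit. At an adjusted p under 0.01, miR-21a-5p between fractions at 0 h (-0.49) and 24 h (0.64) and the 3p changes (0.58 and -0.53) missed. With at least 2-fold as well, so did the nuclear 5p change (0.46) and 3p between fractions at 24 h (-0.92). 

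Leaving out 1 library at a time, the 5p difference between fractions ranged over all libraries from -0.075 to 0.12, at 0 h from -0.66 to -0.32, at 2 h from -0.27 to 0.14 and at 24 h from 0.55 to 0.74. The 5p change at 24 h ranged from 0.30 to 0.63 in the nucleus and from -0.77 to -0.57 in the cytoplasm, and at 2 h from 0.19 to 0.53 and from -0.27 to 0.14. The 3p change at 24 h ranged from 0.51 to 0.66 in the nucleus and from -0.62 to -0.44 in the cytoplasm, and at 2 h in the cytoplasm from -0.17 to 0.042. The arm ratio's change at 24 h ranged from -0.24 to 0.0078 in the nucleus and from -0.33 to 0.046 in the cytoplasm, its interaction from -0.16 to 0.21, and the share difference from -7.86 to -3.90 points.

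Same-numbered samples were not treated as pairs. Their deviations correlated at -0.22 to 0.48 between groups, and at 0.067, 0.24 and 0.094 between nucleus and cytoplasm at 0, 2 and 24 h, and the labels do not say whether these share a culture. With the replicate block the 5p interaction at 24 h was 1.13 (adjusted p 0.00513) and no call of either arm or their ratio changed, while the count of miRNAs called at 2 h in the nucleus was 0 against 25. The culture as a replicate block was fitted only to the levels of the arms, between fractions and for the interactions. There the 5p call at 0 h (-0.49) was lost and no other call changed. The arm ratio and the changes with time were not fitted with that block. Counts of called miRNAs fell most under the adjusted p under 0.01 with at least 2-fold, to 104 of 196 for nucleus against cytoplasm, 132 of 219 at 0 h, 125 of 221 at 2 h, 55 of 149 at 24 h, 73 of 163 for the nuclear and 48 of 123 for the cytoplasmic 24 h change and 79 of 162 for its interaction. At an adjusted p under 0.01 alone, 95 passed between fractions at 24 h and 88 for the interaction. Leaving out 1 library took these 24 h counts to 76 (without cytoplasmic replicate 1 of 24 h) and 97 (without nuclear replicate 2 of 0 h) at the lowest, the nuclear change to 104 (without nuclear replicate 2 of 24 h), the cytoplasmic change to 65 and its called arm ratios to 10 of 29 (both without cytoplasmic replicate 1 of 24 h). At 2 h counts ranged widely over the settings, from 0 to 54 against 25 in the nucleus, 0 to 47 against 0 in the cytoplasm and 0 to 66 against 20 for the interaction. Rare 3p reads in the nucleus, 105 to 229 a library, limit the precision of the arm ratio.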
